A study of Mus musculus with 4 samples.

Results

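The genes described here are 10 liver genes of blood clotting and its control: the vitamin K-dependent proteases F7, F9, F10, prothrombin (F2) and protein C (Proc), the cofactor F5, the contact factor F12, antithrombin (Serpinc1), the fibrinogen gamma chain (Fgg) and plasminogen (Plg). They were taken by name from the array's annotation, which assigns 14 probe sets to them, and are 10 of the 8251 genes that carry 1 symbol on the array. The choice was made with earlier results of these data known, so a shared direction of the 10 is a description and not a test. Mouse liver RNA was hybridised to 4 MG_U74Av2 arrays (Affymetrix), 2 for hepatic reductase null mice and 2 for control mice, each numbered 7 and 8. In this text the reductase is read as NADPH-cytochrome P450 oxidoreductase, the electron donor of microsomal P450 enzymes, which the known mouse line of this name lacks in hepatocytes through a Cre recombinase driven by the albumin promoter. The labels name neither the gene, the alleles, the strain, the age nor the sex, and the targeted gene was not analysed here. They state that RNA of 3 animals of a genotype was pooled for each experiment, while control titles speak of a mouse, so p-values measure the spread between these arrays only.

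Most plasma clotting proteins are made by hepatocytes and secreted as inactive precursors. In the cascade, factor VII and factor IX activate factor X, factor X with its cofactor factor V makes thrombin from prothrombin, and thrombin turns fibrinogen into fibrin. Protein C and antithrombin restrain thrombin formation, and plasmin, made from plasminogen, dissolves the clot. Several of the proteases need a vitamin K-dependent carboxylation in the endoplasmic reticulum of hepatocytes before they can bind calcium and membranes.

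All 10 clotting genes had a lower mean log2 signal in null than in control liver, as had 51.5% of all tested genes, and none of the 10 passed the test over all genes. The log2 differences, null minus control, lay between -0.57 for Proc and -0.03 for Serpinc1 with a median of -0.24, against a median of -0.01 over all 5510 tested genes. In limma with Benjamini-Hochberg adjustment, 0 of 10 were called lower at an adjusted p under 0.05, where 0.0907% of all tested genes were called lower, and 0 were called higher (0.309% of all genes). At an unadjusted p under 0.05, 5 of the 10 were lower (F2, F5, F12, Proc and Fgg), against 6.93% of all tested genes, and 0 were higher, against 6.46%. That count of 5 was 1 without an intensity trend, 2 without control replicate 8, 3 without control replicate 7 and 1 with each array centred on its median hepatocyte marker, a setting chosen after seeing the data, in which the median of the 10 was -0.11. With that centring the median over all tested probe sets moved to 0.11. The share of 6.93% over all tested genes belongs to the main setting, and no such share is given for the other settings. The arrays did not overlap for 7 of the 10, with both null signals under both control signals, as for 24% of all tested genes, and 0 of the 10 had both null signals above both control signals, against 20.9%. F7, F9 and Serpinc1 overlapped. Bright genes ran lower in null liver more often than all genes did: among the 805 genes at least as bright as the dimmest of the 10, 55.8% had a lower mean in null liver, 33.7% did not overlap with null lower and 14.8% had an unadjusted p under 0.05 with null lower. As bulk RNA was measured, fewer cells of a type and less RNA per cell cannot be told apart.

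**Figure D1:**
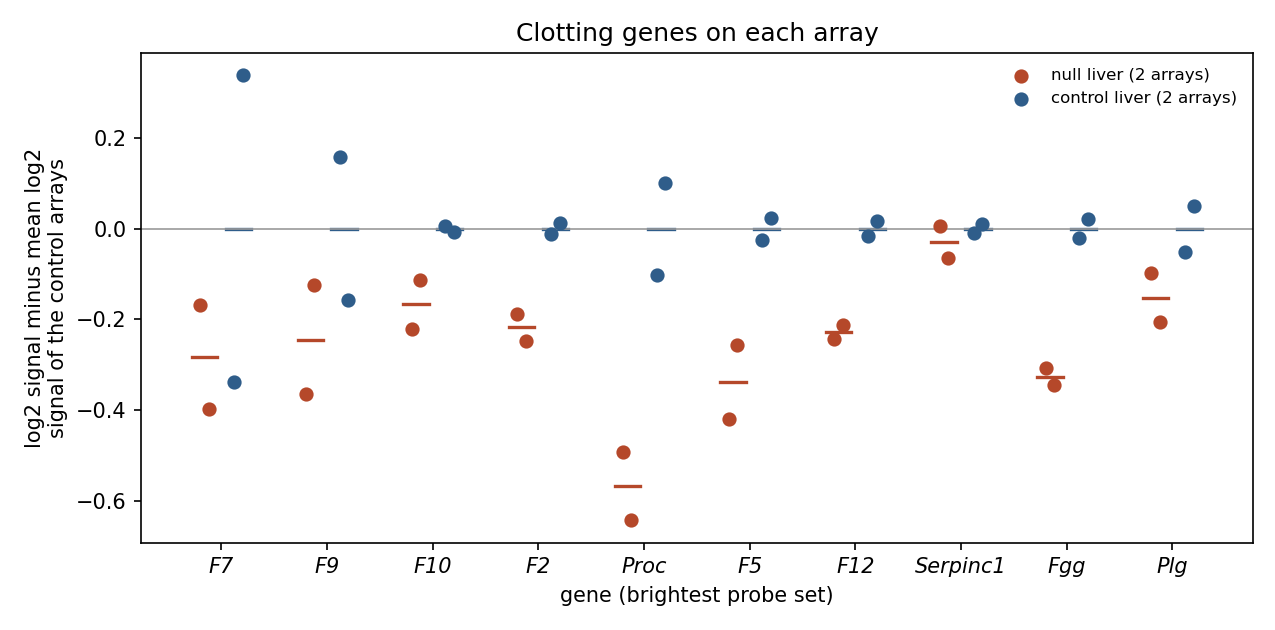
Signal of each clotting gene on each array, as log2 signal minus the mean log2 signal of the 2 control arrays. Points are arrays, short bars are group means, and null arrays stand left of control arrays; both null points lie under both control points for 7 genes and overlap with control for F7, F9 and Serpinc1.

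The sequence just before the transcription start is shown for 4 of these genes, because clotting genes are known targets of liver-enriched transcription factors, HNF4 among them. A RefSeq promoter (GRCm38.p6) was matched for 8 of the 10, and its 250 bases before the start were searched on both strands. The letters CAAAGGT, the core of an HNF4 element, were found in 3 of the 8, against 3.54% of all 32851 promoters. Each stretch below has 30 bases, with these letters or their reverse complement in capitals, and lies before the start of its gene at chr8:13025991-13026020 (plus strand) for F7, chr13:55426812-55426841 (minus strand) for F12 and chrX:59999434-59999463 (plus strand) for F9.
F7: cctcccccctgACCTTTGccctcccggcag
F12: aagcttctgagACCTTTGcccgcatctatt
F9: tgacgcttgcacaatctcctaaCAAAGGTc
The first capital stands 32 bases before the start in F7, 26 in F12 and 8 in F9. The log2 differences of these 3 genes, -0.28, -0.23 and -0.24 for F7, F12 and F9, lay among those of the others, and the match is a description of letters, not a measured site. The letters GTTAAT of HNF1 sites and TGTTTAC of FOXA sites were in none of the 8 windows, against 6.43% and 3.17% of all promoters. TTGCNCAA, a C/EBP-type element, was in 1 (F9), against 2.61%. The 100 bases before the start of Fgg are printed because this gene is known to answer to interleukin-6 through elements with the letters CTGGGA. The letters stand in capitals (chr3:83007624-83007723, plus strand), again as a match of letters and not a measured site.
Fgg: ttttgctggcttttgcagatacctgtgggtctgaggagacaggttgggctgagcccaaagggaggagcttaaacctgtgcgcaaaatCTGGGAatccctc
These letters are common, being in 27% of all promoter windows and in 3 of the 8 here (F9, F10 and Fgg).

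Among the vitamin K-dependent proteases, F7, which starts the extrinsic pathway with tissue factor, had signals of 361.5 and 308.2 on the null arrays, against 321.1 and 513.8 on the control arrays. The control arrays differed more than the genotypes did, and the log2 difference of -0.28 ± 0.22 (SE, adjusted p = 0.66 in limma) turned to 0.056 without control replicate 8. A second F7 probe set gave 222.9 and 249.8 in null liver against 261.8 and 327.1 in control liver, with no overlap and a log2 difference of -0.31 ± 0.16 (adjusted p = 0.479). F9, the protease missing in haemophilia B in humans, had 646.6 and 764.5 in null liver against 929.3 and 746.7 in control liver. Null replicate 8 lay above control replicate 8, so the groups overlapped, and the log2 difference was -0.24 ± 0.14 (adjusted p = 0.536 in limma). That of F9 rested on single arrays, at -0.087 without control replicate 7, -0.12 without null replicate 7 and -0.40 without control replicate 8. F10, the protease that makes thrombin, had 758.6 and 818.4 in null liver against 888.6 and 880.6 in control liver. Both null arrays lay under the control arrays, at a log2 difference of -0.17 ± 0.10 (adjusted p = 0.532). Its second, dimmer probe set showed no such order, with 138.3 and 83 in null liver against 87.1 and 128.4 in control liver and a log2 difference of 0.02 ± 0.30. F7 and F10 lie next to each other on chromosome 8 in the gene table.

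F2, which encodes prothrombin, had 2399.8 and 2304.8 in null liver against 2711.4 and 2757.7 in control liver. The gap between the groups was wider than the spread within either, and the log2 difference was -0.22 ± 0.07 (SE, 95% interval -0.39 to -0.04), or 14% lower, with an adjusted p of 0.29 in limma. Proc, which encodes the anticoagulant protease protein C, had the lowest log2 difference of the 10. Its signals were 1797.3 and 1617.9 on the null arrays against 2354.7 and 2712.5 on the control arrays. The log2 difference was -0.57 ± 0.10 (SE, 95% interval -0.81 to -0.33), or 32.5% lower in null liver, with an unadjusted p of 0.000906 and an adjusted p of 0.0863 in limma. A second Proc probe set was dim, with 9.6 and 13.2 in null liver against 12.3 and 32 in control liver, and was not tested.

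The cofactor gene F5, whose activated product speeds up thrombin formation, had signals of 571.1 and 640.1 in null liver against 750.9 and 777.4 in control liver. Its arrays did not overlap, and the log2 difference was -0.34 ± 0.11 (SE), or 20.9% lower (adjusted p = 0.268 in limma). F12, the protease that starts the contact pathway, had 1098.2 and 1122.6 in null liver against 1285 and 1314.8 in control liver. Replicates of this gene lay close together in both groups, and the log2 difference was -0.23 ± 0.09 (adjusted p = 0.344). Serpinc1, which encodes antithrombin, the main plasma inhibitor of thrombin and factor Xa, had 3837.7 and 3650.8 in null liver against 3793.8 and 3846.1 in control liver. Null replicate 7 lay between the control arrays. Its log2 difference was -0.03 ± 0.07 with a 95% interval from -0.19 to 0.13, which does not meet the interval of Proc, although both products are anticoagulants. The difference between these genes was not tested.

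Plg, the precursor of the fibrin-cleaving protease plasmin, was measured by a pair of probe sets. The brighter, of a kind (_f_at) that can bind related transcripts, had 6759.7 and 6275.6 in null liver against 6986.5 and 7495.6 in control liver, at a log2 difference of -0.15 ± 0.07 (adjusted p = 0.436 in limma). The other had 3124.4 and 3151.2 in null liver against 3642.1 and 3605.2 in control liver, at -0.21 ± 0.07 (adjusted p = 0.268). Neither overlapped between the groups, and both were lower in null liver by a like amount.

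**Figure D2:**
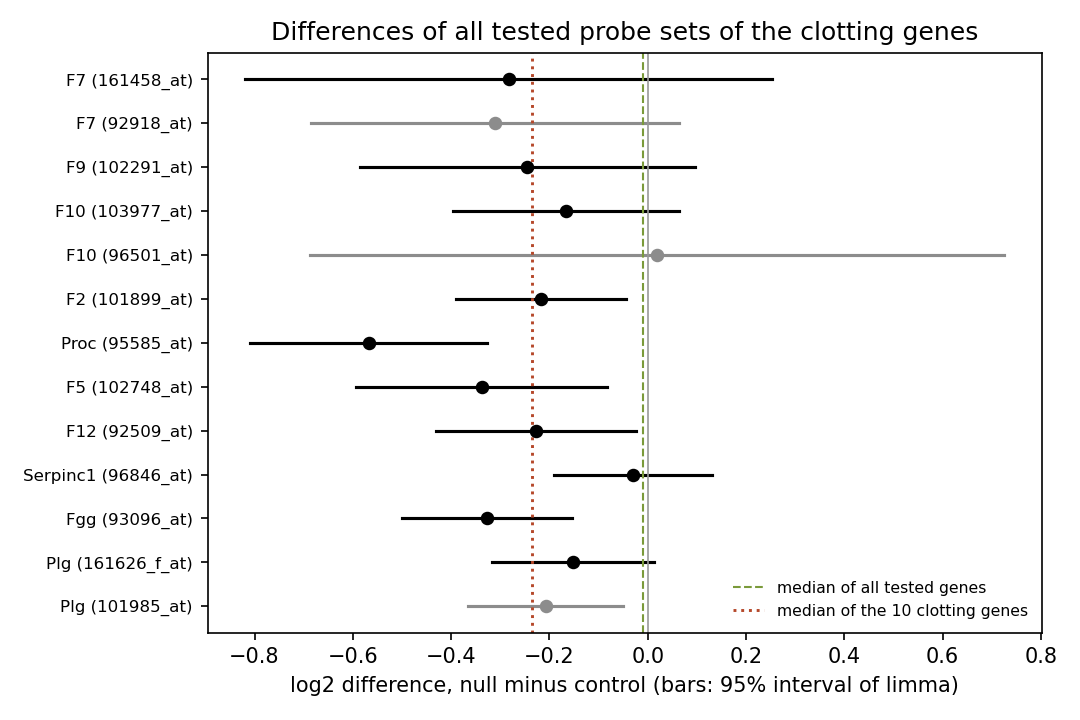
Log2 difference, null minus control, of the 13 tested probe sets of the clotting genes, with the 95% interval of limma. Black marks the brightest probe set of a gene and grey the others; the dashed line is the median of all tested genes (-0.01) and the dotted line that of the 10 clotting genes (-0.24), and the interval of Proc, at -0.81 to -0.33, is the lowest.

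Fibrinogen is built from 3 chains, encoded by Fga, Fgb and Fgg, which lie in 1 cluster on chromosome 3 and are known to be induced together in the acute phase response. Here their signals did not run one way. Fgg had 2281.8 and 2222.7 in null liver against 2784.2 and 2865.8 in control liver, a log2 difference of -0.33 ± 0.07 (SE, 95% interval -0.50 to -0.15), or 20.3% lower, with an unadjusted p of 0.00297 and an adjusted p of 0.136 in limma. Fgb had 1287.7 and 1448.8 in null liver against 1745.1 and 1821.6 in control liver, at -0.38 ± 0.09 (adjusted p = 0.164). Fga had 1231.5 and 1468.7 in null liver against 1079.1 and 1121.2 in control liver, at 0.29 ± 0.11 (adjusted p = 0.346). In all 3 genes the groups did not overlap, with null lower for Fgg and Fgb and null higher for Fga. Of all tested genes, 24% did not overlap with null lower and 20.9% with null higher, and none of the 3 chains passed in limma.

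Within each array, the log2 ratio of the Fga signal to the Fgg signal was -0.89 and -0.60 in null liver against -1.37 and -1.35 in control liver, a difference of 0.62. For Fgb to Fgg the log2 ratio was -0.83 and -0.62 in null liver against -0.67 and -0.65 in control liver, a difference of -0.06, and the groups overlapped. A ratio within an array shows an unequal change of the signals and not which gene stayed level. By a two-sided exact permutation test the p was 0.333 for Fga to Fgg, the smallest that 2 arrays in each group can give, and 1 for Fgb to Fgg. Without null replicate 8 the log2 difference of Fga itself was 0.16 in place of 0.29.

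**Figure D3:**
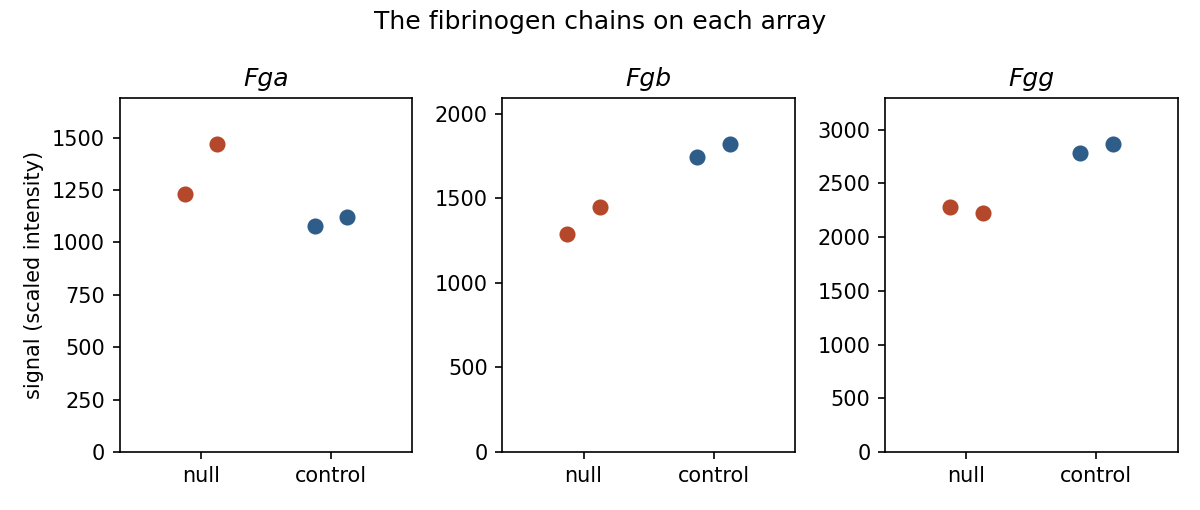
Signals of the 3 fibrinogen chain genes on each array (scaled intensity, linear axes from 0), null arrays left of control arrays, 1 point per array. Null signals were above control signals for Fga (1231.5 and 1468.7 against 1079.1 and 1121.2) and below them for Fgb and Fgg.

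The 10 genes had a smaller SD between replicates than bright genes did in null liver and a larger one in control liver. The SD over the 10 genes of the log2 difference between replicates 7 and 8 was 0.15 in null liver and 0.25 in control liver. It was 0.22 and 0.18 over the 805 genes at least as bright as the dimmest of the 10, which include the 10. Over all tested probe sets, many of them dim, it was 0.55 and 0.47. The control value of the 10 rested largely on F7, which had the widest log2 gap between the control arrays (321.1 and 513.8). Closest to the mean profile of the 10 over the 4 arrays were F12, F2 and Fgg (Euclidean distances of 0.054, 0.065 and 0.079 on the log2 scale), and farthest were F7, Proc and F9 (0.45, 0.34 and 0.33). Outside the gene lists, the nearest profiles over these 4 arrays were those of St13, Stat6 and Slc38a5, at distances of 0.027, 0.029 and 0.033 and log2 differences of -0.24, -0.27 and -0.28, none of which passed.

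The other clotting proteins did not share one direction. Of 11 tested, 0 were called in limma in either direction, 6 had negative and 5 positive log2 differences, and their median was -0.03. At an unadjusted p under 0.05, 2 were lower (Fgb and Hgfac) and 1 higher (Fga). Hgfac, a protease that activates hepatocyte growth factor, was at -0.35 ± 0.11 (SE, log2). Von Willebrand factor (Vwf), which endothelial cells make, was at 0.59 ± 0.31 on a dim probe set, and Pros1, the vitamin K-dependent cofactor of protein C, was at 0.29 ± 0.16, with 230.4 and 244.6 in null liver against 218 and 173 in control liver. Proc and Pros1 had log2 differences of opposite sign, neither of which passed in limma (adjusted p = 0.0863 and 0.514), and that of Pros1 was 0.12 without control replicate 8.

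Of 12 tested inhibitors and genes of fibrinolysis, 1 rose, 0 fell and 11 did not pass, with a median log2 difference of -0.07. The gene that rose was S100a10, which with Anxa2 forms a cell surface receptor for plasminogen, by 1.05 ± 0.12 (SE, adjusted p = 0.0289 in limma), with 1199 and 1234.9 in null liver against 647.2 and 532.2 in control liver. Its partner Anxa2 was at 0.96 ± 0.31 (adjusted p = 0.268), with 138.6 and 272.9 in null liver against 95.6 and 104.7 in control liver. The call of S100a10 ended without each array in turn, with log2 differences of 0.91 to 1.19 and adjusted p of 0.0585 to 0.168. Among the secreted proteins, Serpinf2, the plasmin inhibitor, was at -0.35 ± 0.09, and Mug1, of the alpha-macroglobulin family, was at -0.53 ± 0.09 on a probe set that can bind related transcripts. Apoh, a phospholipid-binding plasma protein, was at -0.18 ± 0.06. None of these 3 passed in limma over all probe sets (adjusted p = 0.168, 0.0853 and 0.313).

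Of 4 tested genes of the vitamin K cycle, 0 passed in limma. Vkorc1, the warfarin-sensitive reductase that recycles vitamin K, had 1603.3 and 1497.5 in null liver against 1760.8 and 1793.9 in control liver, at -0.20 ± 0.08 (adjusted p = 0.395). Nqo1, a quinone reductase, was at 0.84 ± 0.34 (adjusted p = 0.368 in limma) on a dim probe set that can bind related transcripts. That difference came to 0.41 with the floor at the 50th percentile of signals. Calu, a calcium-binding protein of the secretory pathway, was at 0.25 ± 0.17.

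Of 18 liver transcription factors 0 passed in limma, 13 had negative log2 differences, against 51.5% of all tested genes, and the median was -0.22. At an unadjusted p under 0.05 in limma, 2 were lower and 1 higher. Cebpa, which drives many hepatocyte genes, had 2538.3 and 2473.7 in null liver against 3178.9 and 3065.3 in control liver, at -0.32 ± 0.07 (adjusted p = 0.141). Cebpd, a family member induced in the acute phase, was at 0.77 ± 0.23, and Nr5a2, a nuclear receptor, at -0.61 ± 0.19 on its brighter probe set and -0.19 on the other. Hnf4a, named here after its values were seen, had 77 and 194.6 in null liver against 103.2 and 116.3 in control liver. The null arrays of Hnf4a lay on either side of the control arrays. Of 18 acute phase proteins 0 passed, with 12 positive and 6 negative log2 differences and a median of 0.11. The null arrays stood apart for some of them. Lcn2 had 76.4 and 395.6 in null liver against 15.8 and 12.6 in control liver, at 3.62 ± 0.68 on its brighter probe set (2.44 without null replicate 8, 4.81 without null replicate 7) and 0.69 on the other. Orm2 had 324.5 and 689.1 in null liver against 181.2 and 131.5 in control liver, at 1.62 ± 0.34 (1.07 without null replicate 8, 2.16 without null replicate 7). Itih4 was at -0.58 ± 0.10. Fgg, itself an acute phase gene, had a negative log2 difference like Itih4.

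**Figure D4:**
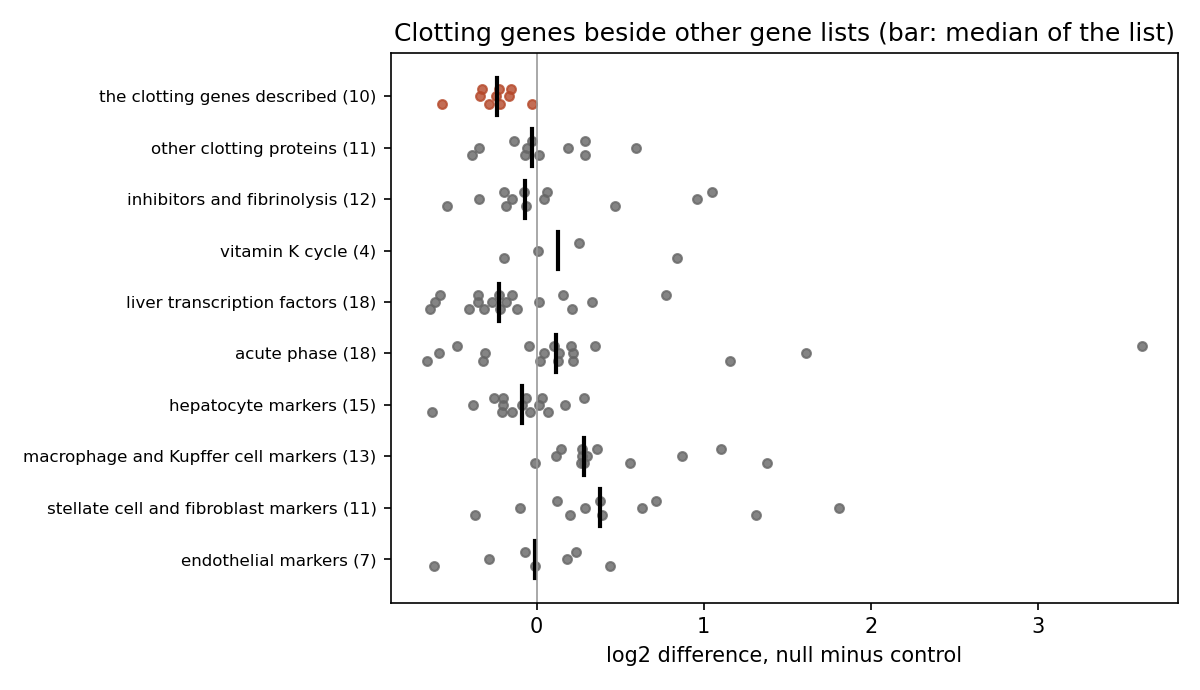
Log2 differences, null minus control, of the tested genes of each list, 1 point per gene at its brightest probe set, with the number of genes in parentheses and a bar at the list's median. The 10 clotting genes lie between -0.57 and -0.03, while the other clotting proteins lie on both sides of 0 (median -0.03) and the macrophage markers lie mostly above it (median 0.28).

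Most hepatocyte markers were bright, albumin (Alb) having 9809.2 and 9108.7 in null liver against 8991 and 9729 in control liver, while Ass1 and Hpd, named like Alb after their values were seen, were dim on every array (Hpd at 61.4 and 70 in null liver against 58.9 and 57.8 in control liver). Of 15 tested, 0 passed in limma, 10 were negative (against 51.5% of all tested genes), and the median was -0.09. For 10 of the 15 the arrays did not overlap with null lower, against 7 of the 10 clotting genes and 24% of all tested genes. Tdo2 was at -0.38 ± 0.06, Ttr at -0.63 ± 0.14 and Fah at -0.25 ± 0.07 (log2, SE). With each array centred on its median hepatocyte marker, the median of the 10 clotting genes was -0.11, while that of all tested probe sets moved to 0.11.

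The arrays also differed in markers of other cells, whose part in the lower clotting signals was not tested. Summed signals of 13 macrophage and Kupffer cell markers, of which 12 were positive and 1 (Mpeg1, by 1.38 ± 0.14) rose with an adjusted p of 0.021 in limma, were 3536.7 and 3859.2 in null liver against 2851.2 and 2818.5 in control liver. The call of Mpeg1 ended without each array in turn (adjusted p of 0.07 to 0.118). Lyz2 was at 1.10 ± 0.21 and Cd14 at 0.87 ± 0.19, while the median of the 13 was 0.28. The 1 negative marker, Clec4f, was at -0.01 ± 0.11, with 389.2 and 374.7 in null liver against 395.6 and 375 in control liver. Summed signals of 11 stellate cell and fibroblast markers were 1708.5 and 2024.5 in null liver against 1341.1 and 1402.6 in control liver, with 9 of 11 positive and 0 called in limma. Most of these sums came from Dcn, with 1029.2 and 1183.5 in null liver against 838.4 and 843.9 in control liver. Col1a1 was at 1.81 ± 0.36, Col3a1 at 1.31 ± 0.34 and Dcn at 0.39 ± 0.10. Of 7 endothelial markers 0 passed and the median was -0.01, with Cdh5 at 0.44 ± 0.19, Eng at 0.23 ± 0.10 and Tek at -0.29 ± 0.27. Neither of the tested erythroid genes passed in limma, with Alas2 at -0.64 ± 0.12 and Hba-a1 at -0.27 ± 0.06. Of 4 tested neutrophil markers, all dim, 0 passed, with Camp at 1.11 ± 0.48, S100a8 at 0.89 ± 0.43 and Ly6g at 0.51 ± 0.39, values that came to 0.044, 0.22 and 0.10 with the floor at the 50th percentile of signals. None of 5 platelet and megakaryocyte markers on the array was bright enough to be tested.

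Pancreatic acinar markers were raised on 1 array, null replicate 7. Their 6 signals summed to 2982.4 there and to 238.5 on null replicate 8, against 272.7 and 386 on the control arrays. Ctrb1 had 1307.3 on null replicate 7 and 78.7 on null replicate 8, against 58 and 71.8 on the control arrays. Cel had 327.4 and 41.7 in null liver against 40.6 and 37.9 in control liver, and Prss2 had 521.7 and 4.7 in null liver against 2.3 and 9.3 in control liver. Without null replicate 7 all 10 clotting genes still had negative log2 differences, with a median of -0.23. The gene farthest from its value with all arrays was then F9, at -0.12 against -0.24. F5 was at -0.26 against -0.34 and F10 at -0.11 against -0.17, while Proc was at -0.64 against -0.57 and Fgg at -0.35 against -0.33. At an unadjusted p under 0.05 there were then 4 lower clotting genes, against 5 with all arrays.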

How the data were processed

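Per the labels, the authors computed the intensity of each probe set with GCOS software and scaled it to total chip fluorescence. The deposited intensities are linear. The sources used here give no software version, scaling target or detection call. The trimmed mean signal (2% cut from each end) was 100.1 on every array, and the median ranged from 26.1 to 28.4. The 66 manufacturer's control probe sets were left out of 12488.

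No further normalisation was applied. Signals were floored at 7.1 (25th percentile), converted to log2, and tested where the mean log2 signal exceeded that of 16.8 (40th percentile), which left 7241 probe sets and 5510 genes, each represented by its brightest probe set. Of the 14 probe sets of the clotting genes, 13 were tested. Symbols came from the platform's table, updated to GRCm38.p6. Genotype was tested with limma 3.58.1 in R 4.3.3 (lmFit and trended eBayes, two-sided), with Benjamini-Hochberg adjustment over all 7241 probe sets and a threshold of 0.05; steps were tested on simulated data. The number of arrays limits the precision. The clotting genes and lists were chosen with earlier results of these data known. Named genes are all 10, in each list those past the threshold and others up to 3 of smallest p (5 for the clotting lists), and the 3 nearest profiles. Exceptions, chosen after their values were seen, are Hnf4a, Alb, Ass1, Hpd and, in lists with a gene past the threshold, the others named. Promoter letters were searched with Python 3.11.15. Alternatives were other floors, a pseudocount of 16, no filter, other normalisations, no trend, a replicate block, probe sets averaged and each array left out.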

Additional observations from a re-analysis of the deposited data

How the results depend on the processing

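No clotting gene was called in either direction under any of the alternatives run in limma, where the smallest adjusted p was 0.0656 (Proc, quantile normalization) and the largest for Proc was 0.428 (no intensity trend). Deviations of arrays with the same replicate number were hardly correlated (correlation -0.03 over 7241 probe sets). With 2 arrays in each group this cannot exclude that the numbers pair the arrays. With the replicate block the median of the 10 genes was -0.24 and 0 were called. Calls over all probe sets were then 37 higher and 15 lower, against 22 and 6 without the block. Leaving out 1 array gave a median of -0.24 to -0.21, with 10 to 13 higher and 0 to 4 lower probe sets. The filter off, a floor at the 50th percentile and no trend each gave 0 calls over all probe sets, quantile normalization gave 30 higher and 12 lower, and centring on the hepatocyte markers gave 50 higher and 12 lower. F9 ran from -0.40 to -0.087 with 1 array left out. Of the 10 genes, 8 kept a negative sign under all 14 alternatives. With 1 array left out Serpinc1 ran from -0.065 (without null replicate 7) to 0.0067 (without null replicate 8) and F7 from -0.62 (without control replicate 7) to 0.056 (without control replicate 8), and Serpinc1 was at 0.094 with hepatocyte marker centring; the causes were not tested. Hepatocyte marker centring moved the median of the 10 to -0.11. By its construction it added the same amount to every log2 difference. That amount was positive because the median hepatocyte marker was on average lower on the null arrays. At an unadjusted p under 0.05, 5 of the 10 were lower with all arrays, 2 without control replicate 8, 3 without control replicate 7, 4 without null replicate 7, 1 without an intensity trend and 1 with hepatocyte marker centring. Of the genes outside the 10, most named genes were run under these alternatives after seeing the data. S100a10 and Mpeg1 lost their calls without the filter, with a floor at the 50th percentile, without a trend and without each array in turn. Alb turned to -0.053 with quantile normalization. With 1 array left out, Alb ran from -0.042 to 0.072, Hnf4a from -0.51 (without null replicate 8) to 0.83 (without null replicate 7) and Prss2 from -0.19 (without null replicate 7) to 6.0 (without null replicate 8). Calls were gained by Tdo2 with quantile normalization, by Lcn2, Lyz2 and Col1a1 with the block, by Lcn2, Orm2 and Col1a1 with hepatocyte marker centring, by Lcn2 without null replicate 7, and by Ctrb1, Cel and Prss2 without null replicate 8. Signals near the floor are mostly background, which limits the dim second probe set of Proc.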
